A study of Rattus norvegicus with 12 samples.

Results

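Interferon-stimulated antiviral genes were followed in rat lung after brain death, with and without the sphingosine 1-phosphate receptor agonist SEW-2871. A list of 41 gene symbols defined the members, and a member was taken as measured where a probe set of the Affymetrix array carried that symbol alone in the array's annotation. This held for 36 of the 41 genes, out of 14217 genes on the array, and for 48 probe sets. Oasl2, Xaf1, Ddx58, Gbp5 and Ifi47 were not analysed here. No filter on low values was applied, so all 36 entered every test.

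Lung RNA came from wild-type male Sprague Dawley rats of 250 to 350 g, with 3 arrays in each of 4 groups. BD/SEW animals had brain death, induced by inflating a catheter balloon in the extradural space, and received SEW-2871 intravenously at 0.1 mg/kg 15 min after it. BD animals had brain death alone. SEW animals received the same dose of SEW-2871, and the labels do not say whether they also had the sham operation. Sham animals were the controls, and the labels say no more of their procedure. The time of lung collection is not given in the sources used here, and nothing in the labels ties the replicate numbers to animals, so p-values measure the spread between these samples. Values are the deposited log2 levels of probe sets, and a difference of 1 is a change by a factor of 2. Where a gene had several probe sets, the one with the highest mean over the 12 arrays was used.

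Cells make these genes when type I interferons bind their receptor, and the kinases behind it activate a transcription factor complex that holds STAT2 and IRF9 and binds a DNA element called the interferon-stimulated response element (ISRE). Interferon gamma acts mainly at a second element, the gamma-activated sequence (GAS), and IRF1 and IRF3 can drive part of the same genes without new interferon. The products block viruses inside the cell: some degrade or sequester viral RNA, some attach the ubiquitin-like protein ISG15 to other proteins, some sense foreign RNA, and a family of large GTPases attacks the membranes around intracellular microbes.

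The promoters are shown because the ISRE is the sequence these genes are known to share. The list holds known interferon-stimulated genes, so a high share follows from that choice and is no independent support. RefSeq promoter windows (assembly GRCr8, 250 bases before to 50 after the annotated start) were at hand for 28 of the 36 genes. The ISRE core, GAAA then any 2 bases then GAAA, was searched on both strands. It lay in 18 of the 28 windows (64.3%), against 3.92% of all 33469 windows of the same length. The GAS core, TTC then any 3 bases then GAA, which reads the same on both strands, lay in 8 of 28 (28.6%), against 8.87% of all windows, and the 2 elements overlapped in 1 window, that of Bst2. A match describes letters only and is not a bound site. The stretches below are 5′ to 3′ on the gene's strand and end before the annotated start. Capitals mark ISRE core matches. The first 7 belong to genes that rose in BD/SEW against SEW, and the last 3 to genes that did not pass there.
Rsad2 (chr6:48788223-48788302, minus strand): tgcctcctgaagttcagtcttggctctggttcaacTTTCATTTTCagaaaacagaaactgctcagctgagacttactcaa
Ifit3 (chr1:241527246-241527325, plus strand): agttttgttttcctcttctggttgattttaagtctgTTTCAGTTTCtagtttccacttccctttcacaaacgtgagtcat
Oas1b (chr12:41395861-41395940, minus strand): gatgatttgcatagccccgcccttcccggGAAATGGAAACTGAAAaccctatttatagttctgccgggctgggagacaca
Gbp2 (chr2:234005647-234005726, plus strand): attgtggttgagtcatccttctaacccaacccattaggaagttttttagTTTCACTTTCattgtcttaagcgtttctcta
Igtp (chr10:42874909-42874988, plus strand): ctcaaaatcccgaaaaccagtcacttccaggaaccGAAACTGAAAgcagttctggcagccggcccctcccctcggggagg
Ifi44l (chr2:243328629-243328708, plus strand): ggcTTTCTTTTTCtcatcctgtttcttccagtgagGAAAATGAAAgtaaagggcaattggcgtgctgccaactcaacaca
Eif2ak2 (chr6:21941074-21941153, plus strand): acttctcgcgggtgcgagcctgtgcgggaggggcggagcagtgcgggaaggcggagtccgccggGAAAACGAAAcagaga
Bst2 (chr16:18255048-18255127, minus strand): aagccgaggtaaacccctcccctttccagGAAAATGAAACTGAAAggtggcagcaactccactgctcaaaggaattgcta
Ifitm3 (chr1:205541759-205541838, minus strand): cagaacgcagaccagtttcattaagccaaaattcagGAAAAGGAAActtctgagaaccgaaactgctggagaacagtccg
Nmi (chr3:56848599-56848678, minus strand): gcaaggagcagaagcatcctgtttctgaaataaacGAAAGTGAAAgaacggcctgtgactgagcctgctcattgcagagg

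The arrays read as lung: 6 alveolar type 2 markers averaged 12.92 to 13.52 over the 12 arrays, with Sftpc, a surfactant protein gene, at 14.32 to 14.67. Some arrays also held transcripts of other tissue. The mean of 17 cardiac muscle markers was 11.14 in BD replicate 2 and 9.22 to 10.16 in the sham arrays, against 5.64 to 7.92 elsewhere. Adipose markers, of which 9 were measured, averaged 8.72 in BD replicate 2 and 8.34 to 9.3 in the sham arrays, against 6 to 6.83 elsewhere. In such bulk tissue, fewer cells of a type and less RNA per cell cannot be told apart.

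The lung of animals with brain death held high levels of interferon-stimulated genes whether or not SEW-2871 was given, and the lowest levels lay in animals that had the agonist alone. The mean over the 36 genes was 10.61, 10.88 and 10.81 in the BD/SEW arrays and 10.26, 10.91 and 10.85 in the BD arrays. It was 9.03, 9.34 and 9.1 in the SEW arrays and 9.44, 10.62 and 9.65 in the sham arrays. The second sham array thus lay at the level of the lowest BD/SEW array and above the lowest BD array. The group means ran in the order SEW, sham, BD, BD/SEW from low to high in 26 of the 36 genes, an order found in 7.23% of all genes. SEW had the lowest of the 4 means in 29 of 36 (31.3% of all genes), and BD/SEW had the highest in 31 of 36 (22.6% of all genes).

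**Figure D1:**
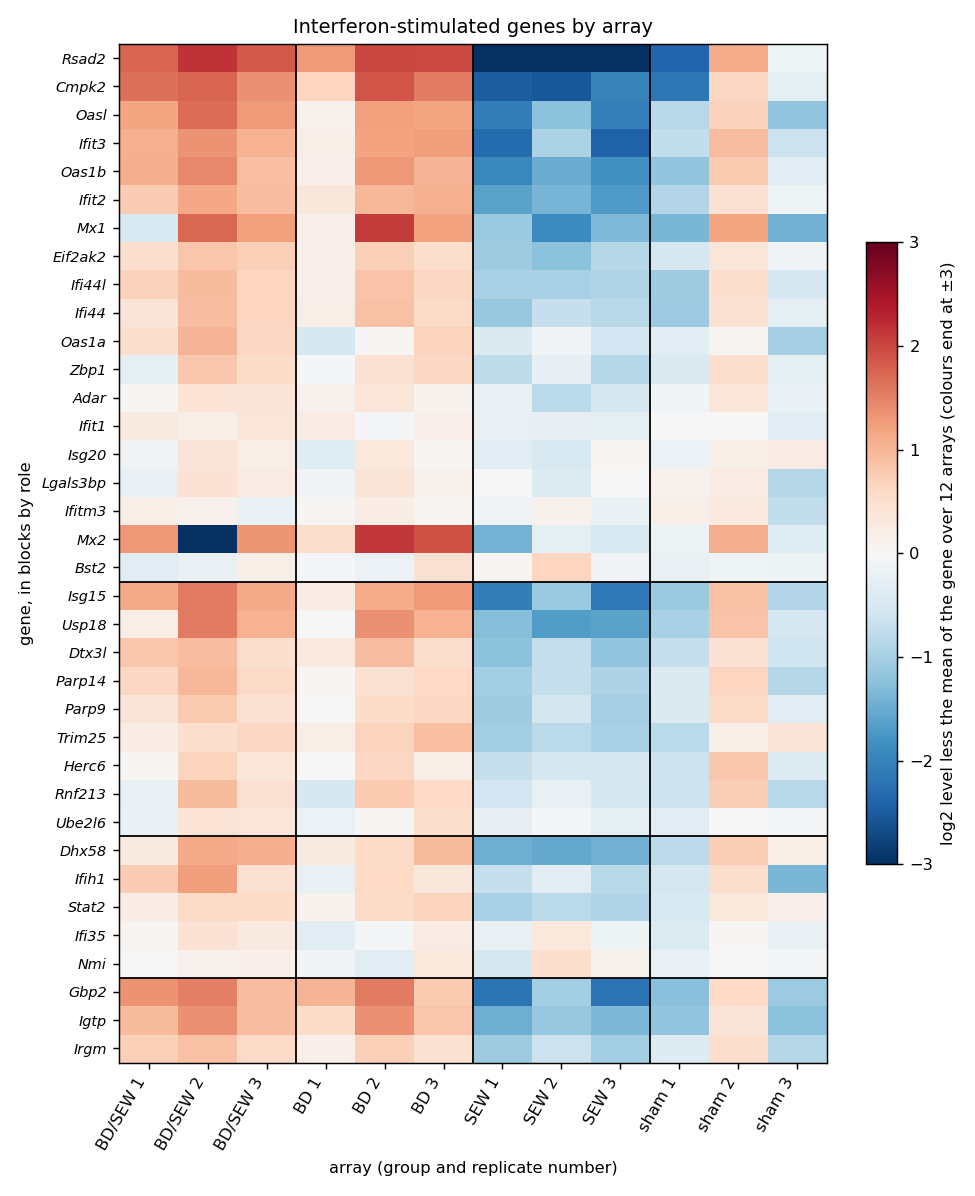
Log2 level of each of the 36 genes (rows, in 4 blocks by role) in each of the 12 arrays (columns, by group), less the gene's mean over all arrays. Most rows are red in the BD/SEW and BD arrays and in sham replicate 2 and blue in the SEW arrays, with Mx2 in BD/SEW replicate 2 as the 1 dark blue cell among the BD/SEW arrays.

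Brain death with the agonist, set against the agonist alone, gave the widest separation. The labels do not say whether SEW animals had an operation, so brain death and the procedure around it cannot be told apart here. In BD/SEW against SEW 24 of the 36 genes rose (4.75% of all genes rose) and 0 fell (5.04% of all genes fell), and 12 did not pass at an adjusted p under 0.05. At an unadjusted p under 0.05 there were 27 of 36, against 23.8% of all genes. The median difference over the 36 genes was 1.49, against -0.007 over all 14217 genes. The mean was higher in BD/SEW in 34 of 36 (48.5% of all genes). In 26 of the 36 genes every BD/SEW array lay above every SEW array, which held for 13.2% of all genes. The count of genes that rose was between 20 and 23 when any 1 of the 6 arrays was left out. The mean of 8 neutrophil markers was 10.61 to 10.94 in BD/SEW and 8.2 to 9.95 in SEW, that of 7 macrophage and monocyte markers 8.99 to 9.33 in BD/SEW and 8.62 to 9.6 in SEW, and that of 6 natural killer cell markers 8 to 8.46 in BD/SEW and 7.26 to 8.55 in SEW. The part of these cells in the rise was not tested. The cardiac mean was 5.86 to 7.92 in BD/SEW and 5.64 to 7.25 in SEW, and 22 genes passed with it as a covariate.

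Among the antiviral effectors, 12 of 19 measured genes rose in BD/SEW against SEW. Rsad2 encodes viperin, an enzyme that makes a chain-terminating nucleotide against viral polymerases. Its log2 level was 13.7, 14.12 and 13.79 in the BD/SEW arrays and 8.53, 8.83 and 8.83 in the SEW arrays. The groups lay far apart, and Rsad2 rose by 5.14 ± 0.63 (log2 difference ± SE, n = 3 per group, adjusted p = 0.00061), a factor of 35.3. Each SE here rests on a spread pooled over all 12 arrays, not on the 2 groups compared. With only the compared arrays fitted, the Rsad2 SE was 0.14 here and 0.78 in BD against sham. Cmpk2, a mitochondrial nucleotide kinase, was at 12.61, 12.69 and 12.33 in BD/SEW and at 8.48, 8.42 and 8.94 in SEW. It rose by 3.93 ± 0.55 (adjusted p = 0.0012), again with no overlap.

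The oligoadenylate synthetase family and the Ifit genes, which bind viral RNA, moved the same way. Oasl, an oligoadenylate synthetase-like gene, was at 11.36, 11.86 and 11.46 in BD/SEW and at 8.1, 8.94 and 8.12 in SEW, and rose by 3.17 ± 0.45 (adjusted p = 0.0013). Oas1b was at 9.08, 9.43 and 8.9 in BD/SEW and at 6.06, 6.51 and 6.17 in SEW, and rose by 2.89 ± 0.42 (adjusted p = 0.0015). Oas1a rose by 1.06 ± 0.3 (adjusted p = 0.049). These genes are close relatives whose probes may cross-react. Ifit3 was at 13, 13.28 and 12.98 in BD/SEW and at 9.61, 10.98 and 9.5 in SEW, the second SEW array being the nearest to the BD/SEW values. It rose by 3.06 ± 0.48 (adjusted p = 0.0022). Ifit2 rose by 2.51 ± 0.28 (adjusted p = 0.00035), while its second probe set gave 3.31. Ifit1 stayed within 6.81 and 7.52 over all 12 arrays, and its rise of 0.51 ± 0.12 (adjusted p = 0.019) was the smallest of the 24.

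Eif2ak2, which encodes the kinase PKR that halts translation on double-stranded RNA, rose by 1.73 ± 0.21 (adjusted p = 0.00055). Ifi44l rose by 1.7 ± 0.31 (adjusted p = 0.0053) and Ifi44 by 1.54 ± 0.32 (adjusted p = 0.011), 2 neighbouring genes of little-known function. Adar, an RNA editing enzyme that keeps the cell's own RNA from being sensed, rose by 0.77 ± 0.18 (adjusted p = 0.02), though its 3 probe sets gave differences from 0.13 to 0.77. The 7 effectors that did not pass were Mx1, Mx2, Zbp1, Isg20, Lgals3bp, Ifitm3 and Bst2. Bst2, or tetherin, which holds budding viruses at the cell surface, was at 12.08, 12.17 and 12.58 in BD/SEW and at 12.45, 13.05 and 12.31 in SEW. Ifitm3, which blocks the fusion of viruses with endosomes, was at 13.3, 13.23 and 12.89 in BD/SEW and at 12.99, 13.22 and 12.89 in SEW. In both genes the groups overlapped, although both promoters hold the ISRE core printed above. Of the genes with a promoter window, the core lay in 13 of 18 that rose here and in 5 of 10 that did not pass.

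ISG15 and the enzymes around it formed the second block, in which 6 of 9 genes rose. Isg15 itself was at 13.12, 13.55 and 13.13 in BD/SEW and at 9.92, 10.89 and 9.84 in SEW, and rose by 3.05 ± 0.47 (adjusted p = 0.0021). Usp18, the protease that removes ISG15 and dampens the type I receptor, was at 10.68, 12.04 and 11.53 in BD/SEW and at 9.22, 8.8 and 8.89 in SEW. It rose by 2.45 ± 0.48 (adjusted p = 0.0079). Dtx3l and Parp9, whose products form 1 ubiquitin ligase complex, rose by 1.78 ± 0.28 (adjusted p = 0.0022) and 1.4 ± 0.26 (adjusted p = 0.0059). Parp14, an ADP-ribosyltransferase, rose by 1.63 ± 0.3 (adjusted p = 0.0059), and Trim25, a ubiquitin ligase of the RNA-sensing pathway, by 1.38 ± 0.27 (adjusted p = 0.0082). Herc6, the ISG15 ligase of mouse, Rnf213 and Ube2l6, the ISG15 conjugating enzyme, did not pass.

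Of the RNA sensors and signal transducers 3 of 5 rose. Dhx58 encodes LGP2, a modulator of RNA sensing, and was at 9.26, 10.11 and 10.06 in BD/SEW and at 7.51, 7.45 and 7.53 in SEW. It rose by 2.31 ± 0.34 (adjusted p = 0.0016). Stat2 rose by 1.34 ± 0.2 (adjusted p = 0.0016). Ifih1, which encodes the sensor MDA5, rose by 1.43 ± 0.4 (adjusted p = 0.044), a call lost whenever 1 of the 6 arrays was omitted. Nmi, an interferon-induced adaptor protein, was at 9.33, 9.46 and 9.47 in BD/SEW and at 8.81, 9.82 and 9.43 in SEW, and Ifi35, its binding partner, differed by 0.28 ± 0.18. All 3 measured GTPases of the interferon gamma response rose. Gbp2 was at 12.62, 12.77 and 12.19 in BD/SEW and at 9.07, 10.25 and 9.06 in SEW, and rose by 3.07 ± 0.46 (adjusted p = 0.0017). Igtp rose by 2.4 ± 0.37 (adjusted p = 0.0019) and Irgm by 1.64 ± 0.28 (adjusted p = 0.004). The probe sets of immunity-related GTPases can share sequence, and a further probe set annotated to Igtp together with other genes was not used.

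**Figure D2:**
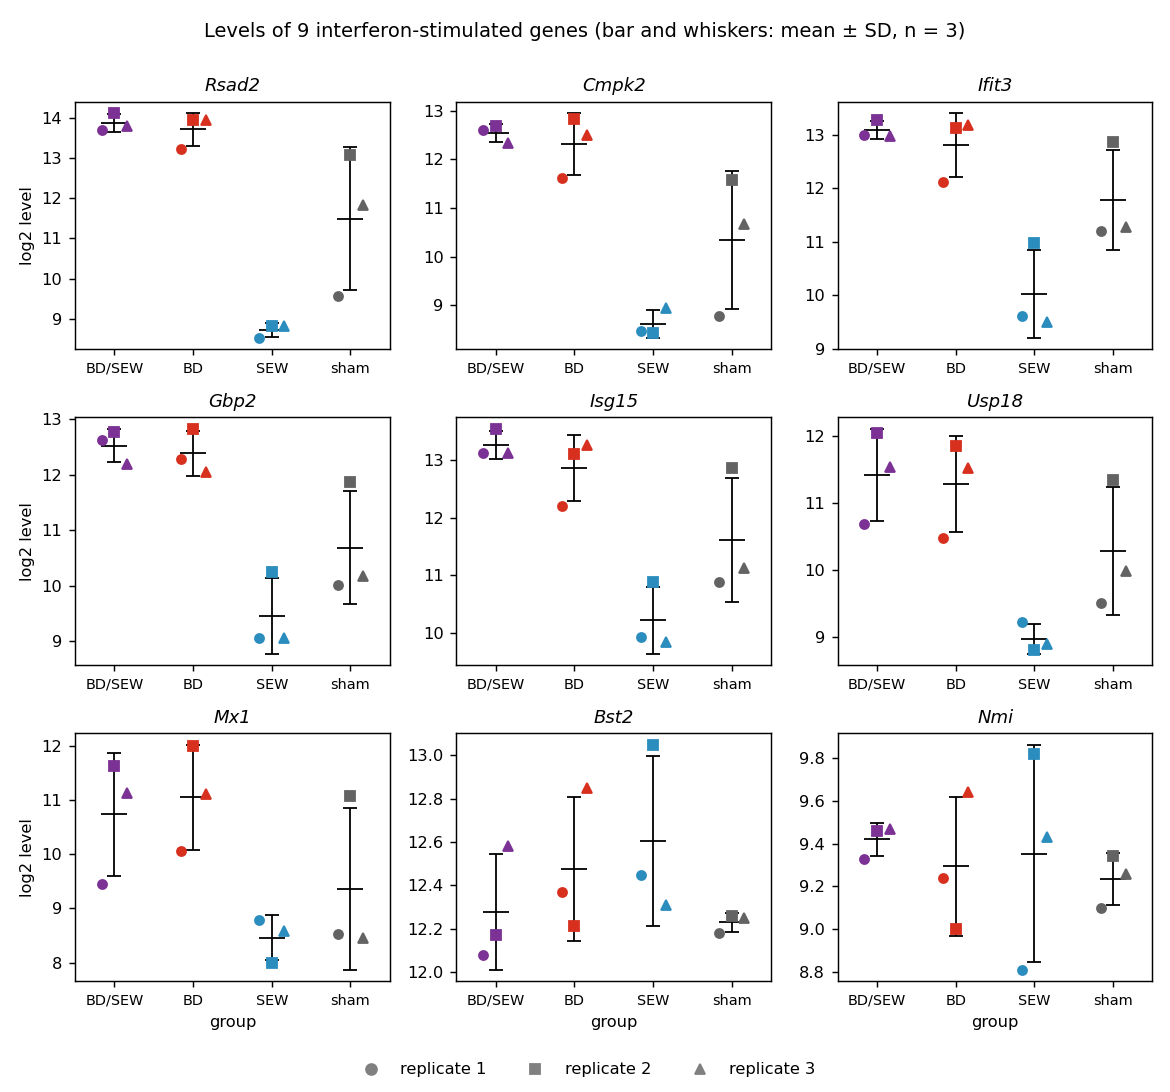
Log2 level of 9 genes in each array, by group, with symbols for the replicate number and the mean ± SD (n = 3). Rsad2, Cmpk2, Ifit3, Gbp2, Isg15 and Usp18 are high in BD/SEW and BD and low in SEW, their 3 sham values spread widely with replicate 2 on top, Mx1 is low in BD/SEW replicate 1, and Bst2 and Nmi overlap between the groups.

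Brain death without the agonist was compared with sham on arrays that BD/SEW against SEW does not share. In BD against sham 35 of 36 genes had a higher mean in BD (50.7% of all genes did), with a median difference of 0.63 against 0.003 over all genes, yet by limma 0 genes rose (0.211% of all genes rose) and 0 fell (0.38% of all genes fell). At an unadjusted p under 0.05 there were 16 of 36 (44.4%), against 11% of all genes. Rsad2 was at 13.23, 13.95 and 13.94 in BD and at 9.57, 13.07 and 11.82 in sham, a difference of 2.22 ± 0.63 (adjusted p = 0.17). All BD values lay above the highest sham value, which came close to the lowest BD value. Cmpk2 was at 11.61, 12.84 and 12.51 in BD and at 8.78, 11.57 and 10.67 in sham (1.98 ± 0.55, adjusted p = 0.15), where the lowest BD and highest sham values nearly met. Igtp had 10.59, 11.4 and 10.87 in BD and 8.85, 10.42 and 8.8 in sham (1.6 ± 0.37, adjusted p = 0.085). Gbp2 had 12.28, 12.83 and 12.05 in BD and 10.02, 11.87 and 10.18 in sham (1.7 ± 0.46, adjusted p = 0.14). These 4 genes were the only members whose BD and sham arrays did not overlap (11.1% of members, 7.95% of all genes). Ifit2 differed by 0.99 ± 0.28 (adjusted p = 0.17), with overlap.

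The sham arrays lay far apart in these genes. Replicate 2 had the highest sham value in 33 of 36 genes, against 25% of all genes, and replicate 1 the lowest in 23 of 36, against 30.9% of all genes. The median gap between the highest and lowest sham array was 1.4 in the 36 genes and 0.29 over all genes. The widest was that of Rsad2, at 3.5. Without sham replicate 2, 5 genes passed in BD against sham (0.345% of all genes did), Igtp, Gbp2 and Rsad2 among them. The median difference was then 1.02. Without sham replicate 1 the median was 0.46 with 0 genes passing (0.26% of all genes passed). The Rsad2 difference was 1.26 without sham replicate 1 and 3.01 without sham replicate 2, and that of Cmpk2 was 1.2 and 2.6 in the same fits. The cardiac mean was 10.16, 9.7 and 9.22 in sham replicates 1, 2 and 3, so replicate 2 lay between the other two. The B cell mean (3 markers) was highest in sham replicate 2, at 7.79 against 6.88 and 7.43 in replicates 1 and 3. The macrophage mean was 9.31 against 9.13 and 8.46, the natural killer cell mean 8.14 against 8.04 and 7.34, and the T cell mean 7.52 against 7.38 and 7.44. Lung epithelial lists peaked there too, with an alveolar type 1 mean of 12.37 against 12.27 and 12.12 in replicates 1 and 3. The alveolar type 2 mean was 13.16 against 13.13 and 12.92. The remaining lists did not peak in replicate 2. In replicates 1, 2 and 3 the neutrophil mean was 10.16, 9.77 and 9.3. The plasmacytoid dendritic cell mean (2 markers) was 10.84, 11.03 and 11.11. The part of these cells in the high values was not tested.

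**Figure D3:**
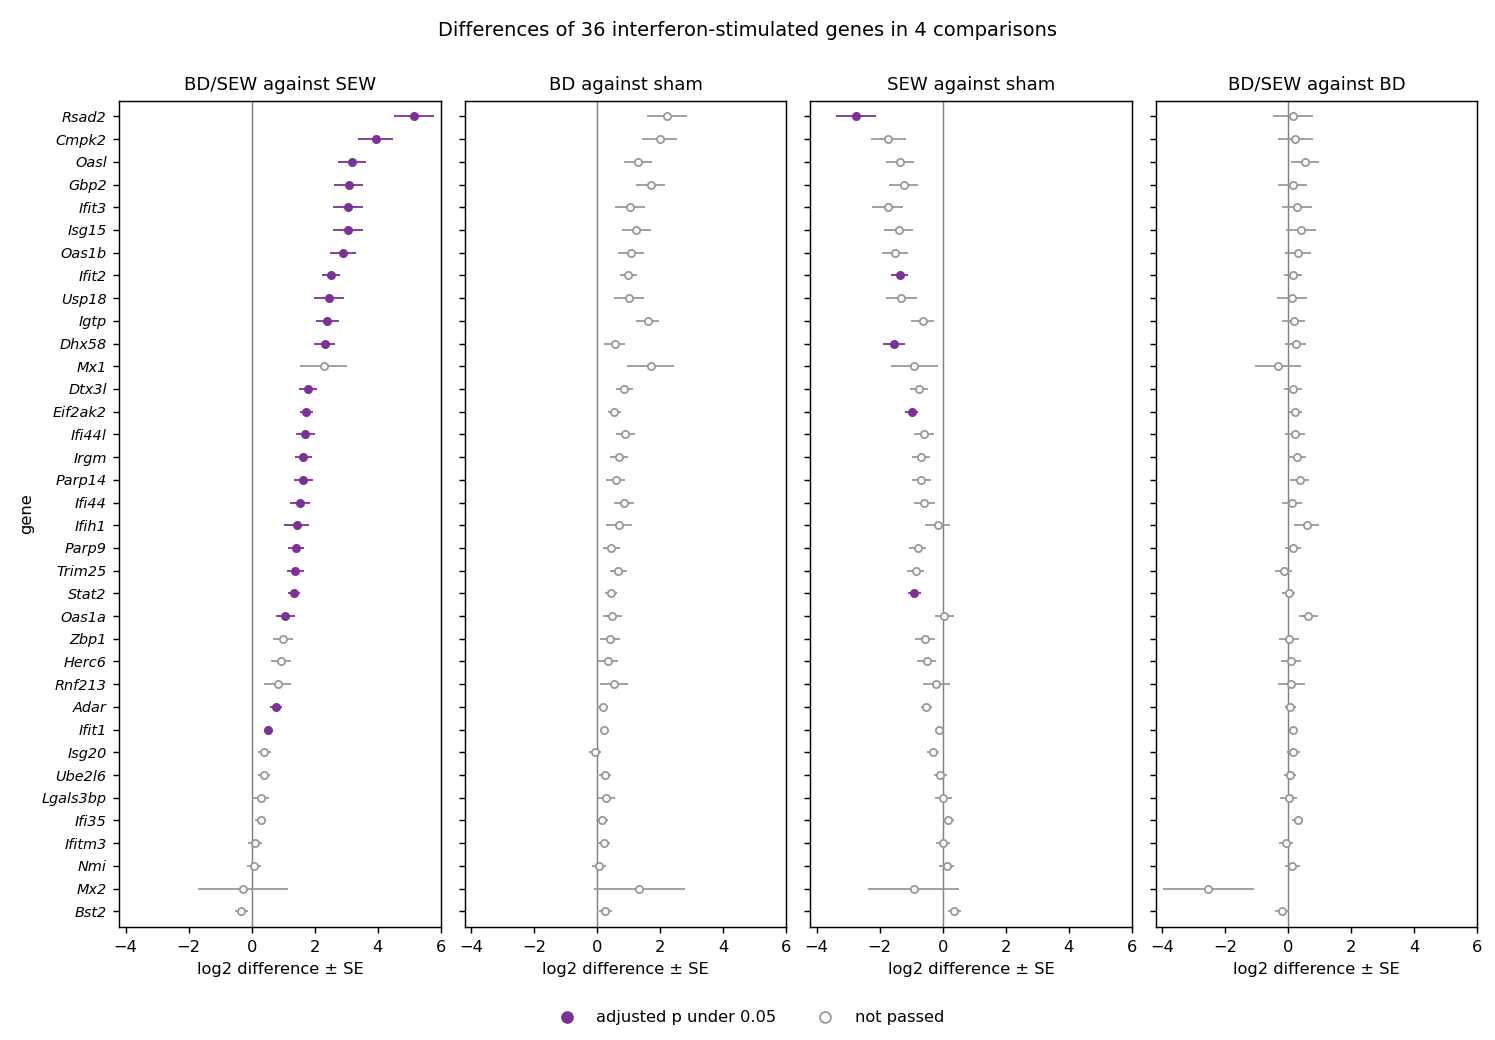
Log2 difference ± SE of the 36 genes (rows, in the order of BD/SEW against SEW) in 4 comparisons, with filled points for an adjusted p under 0.05. The 24 filled points of BD/SEW against SEW run up to 5.14, BD against sham has 0, SEW against sham has 5 on the negative side and BD/SEW against BD clusters at 0 apart from Mx2.

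SEW-2871 alone was set against sham to ask what the agonist does without brain death. In SEW against sham 5 genes fell (2.43% of all genes fell) and 0 rose (3.4% of all genes rose). At an unadjusted p under 0.05 there were 18 of 36, against 25.6% of all genes. The median difference was -0.68, against 0.017 over all genes, and 30 of 36 genes had a lower mean in SEW (47.3% of all genes did). The median was -0.96 without sham replicate 1 and -0.28 without sham replicate 2. Rsad2 was at 8.53, 8.83 and 8.83 in SEW and at 9.57, 13.07 and 11.82 in sham, and fell by 2.76 on the log2 scale (SE 0.63, adjusted p = 0.032). Dhx58 was at 7.51, 7.45 and 7.53 in SEW and at 8.2, 9.71 and 9.19 in sham, and fell by 1.54 (SE 0.34, adjusted p = 0.028). Ifit2 had 10.46, 10.68 and 10.38 in SEW and 11.2, 12.5 and 11.94 in sham, and fell by 1.37 (SE 0.28, adjusted p = 0.021). Eif2ak2 fell by 0.98 (SE 0.21, adjusted p = 0.025) and Stat2 by 0.9 (SE 0.2, adjusted p = 0.028). In these 5 genes, and in 12 of 36 in all (10.6% of all genes), every SEW array lay below every sham array.

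The count of 5 changed with single arrays. It was 8 without sham replicate 1, 0 without sham replicate 2, sham replicate 3 or SEW replicate 1, 2 without SEW replicate 2 and 1 without SEW replicate 3. Shares of all genes called in these fits are not given here, so no change particular to the 36 genes is read from these counts. The count was 0 when only the SEW and sham arrays were fitted and 0 with the cardiac mean as a covariate, a fit in which 24 genes were called in all. The cardiac mean was 5.64 to 7.25 in SEW and 9.22 to 10.16 in sham, and the adipose mean was 6.12 to 6.4 in SEW and 8.34 to 9.3 in sham. The mean of 6 airway epithelium markers was 8.89 to 11.22 in SEW and 12.32 to 12.57 in sham. The neutrophil mean was 8.2, 9.95 and 8.53 in SEW and 10.16, 9.77 and 9.3 in sham. SEW replicate 2 also had the highest SEW value in 24 of the 36 genes, against 32.2% of all genes. Its macrophage mean was 9.6 against 8.83 and 8.62 in the other SEW arrays, and its natural killer cell mean was 8.55 against 7.52 and 7.26. Their part in these differences was not tested. The labels do not say whether SEW animals had an operation, so the agonist and any difference in operation cannot be told apart.

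Treatment with the agonist after brain death left no detectable difference in these genes. In BD/SEW against BD by limma 0 of 36 passed (0.0141% of all genes rose and 0 fell), and at an unadjusted p under 0.05 there were also 0, against 5.44% of all genes. The median difference was 0.16, and 31 of 36 genes had a higher mean in BD/SEW (52.1% of all genes did). That direction turned with 1 array, since the median was -0.03 without BD replicate 1, the low array of its group, and 0.29 without BD replicate 2. The 95% interval of the difference was -1.22 to 1.55 for Rsad2, -0.63 to 1.44 for Isg15, -0.86 to 1.14 for Gbp2 and -0.43 to 0.44 for Stat2, so changes of these sizes stay possible in either direction. By p, the nearest to the threshold was Oas1a, at 11.04, 11.57 and 11.17 in BD/SEW and 10.08, 10.59 and 11.22 in BD (0.63 ± 0.3, adjusted p = 0.91). Ifi35 (0.3 ± 0.18), Ifih1 (0.58 ± 0.4) and Ifit1 (0.16 ± 0.12) followed, apart from Mx2.

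Mx1 and Mx2, which encode dynamin-like GTPases that trap viral nucleocapsids, were singled out after their values were seen. Mx1 was at 9.45, 11.62 and 11.12 in BD/SEW and at 8.79, 7.99 and 8.58 in SEW (2.28 ± 0.74, adjusted p = 0.077), without overlap. The brighter Mx2 probe set read 12.18, 5.27 and 12.22 in BD/SEW, and 5.27 lies below the lower quartile of every array (5.56 to 5.66). It is the widest gap within a group among the 36 genes, at 6.95. With this value Mx2 differed by -2.53 ± 1.44 in BD/SEW against BD and by -0.28 ± 1.44 in BD/SEW against SEW. The dimmer Mx2 probe set read 9.43, 11.1 and 10.84 in BD/SEW, against 8.33, 7.27 and 7.58 in SEW, and no array stood apart in that way. It differed by 2.73 ± 0.69 (adjusted p = 0.034 over all probe sets), and by -0.28 ± 0.69 in BD/SEW against BD. With that probe set in place of the brighter, 25 genes rose in BD/SEW against SEW.

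**Figure D4:**
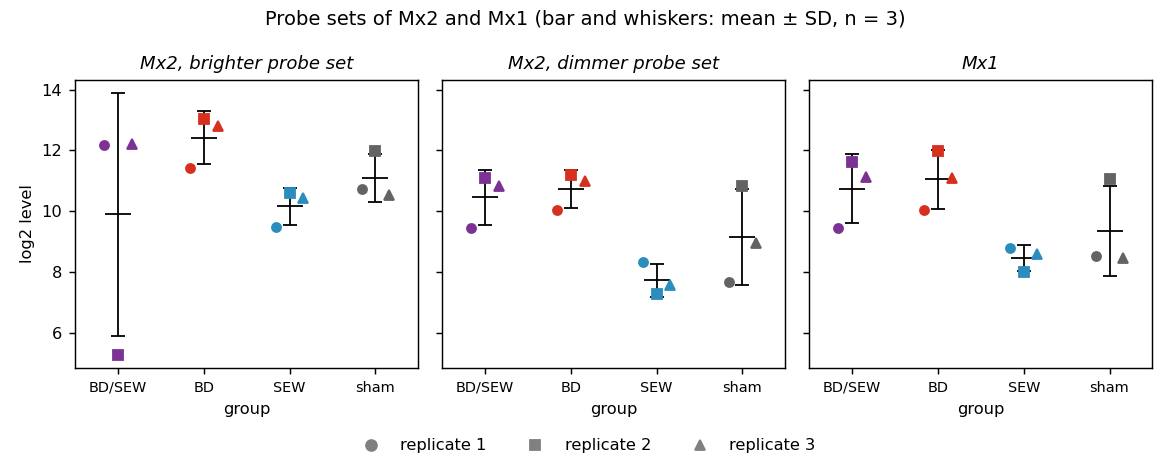
Log2 level of the 2 Mx2 probe sets and of Mx1 in each array, by group, with the mean ± SD (n = 3). BD/SEW replicate 2 is at 5.27 with the brighter Mx2 probe set and at 11.1 with the dimmer one.

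BD/SEW replicate 1 and BD replicate 1 were the low arrays of their groups, and unevenly so across genes. BD/SEW replicate 1 was the lowest of its group in 23 of 36 genes (34.5% of all genes), and BD replicate 1 in 31 of 36 (33.1% of all genes). In BD/SEW replicate 1, Mx1 differed by -1.92 from the mean of the other 2 arrays, with -1.11 for Usp18, -0.95 for Zbp1, -0.89 for Rnf213 and -0.83 for Dhx58. In the same array Cmpk2 (0.1), Gbp2 (0.14), Dtx3l (0.1) and Irgm (-0.02) were level with the other 2. In BD replicate 1 both kinds were low, with -1.49 for Mx1, -1.2 for Usp18 and -1.07 for Cmpk2, while Gbp2 was at -0.16. These genes were picked for their values, as a description.

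Treated brain-dead animals were also set against sham. In BD/SEW against sham 1 gene rose (1.7% of all genes rose) and 0 fell (1.17% of all genes fell), and 35 of 36 had a higher mean in BD/SEW (51.9% of all genes did). At an unadjusted p under 0.05 there were 23 of 36, against 17.5% of all genes. Igtp was at 10.99, 11.4 and 10.97 in BD/SEW and 8.85, 10.42 and 8.8 in sham, and rose by 1.76 ± 0.37 (adjusted p = 0.03). Ifit2 (1.14 ± 0.28, adjusted p = 0.056), Oasl (1.82 ± 0.45, adjusted p = 0.056), Cmpk2 (2.2 ± 0.55, adjusted p = 0.057) and Gbp2 (1.84 ± 0.46, adjusted p = 0.057) came next. In 16 of 36 genes all BD/SEW arrays lay above all sham arrays, against 13.7% of all genes. The count of 1 was 15 without sham replicate 2 and 0 without any 1 of the other 5 arrays. Shares of all genes called in these fits are not given here, so no gain particular to the 36 genes is read from the 15. Between BD/SEW and sham the neutrophil mean was 10.61 to 10.94 against 9.3 to 10.16, the cardiac mean 5.86 to 7.92 against 9.22 to 10.16 and the airway mean 9.79 to 10.44 against 12.32 to 12.57. With the cardiac mean as a covariate 0 genes passed, and Igtp differed by 2.1 ± 0.47 (adjusted p = 0.15). The part of the other markers was not tested. This comparison shares the sham arrays with BD against sham and with SEW against sham.

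The interaction is the BD/SEW against SEW difference less the BD against sham difference. It equals the BD/SEW against BD difference less the SEW against sham difference. The medians of these were 0.16 and -0.68, and the Rsad2 values 0.16 and -2.76, so the larger part lay in SEW against sham. The unknown operation of the SEW animals enters this term as well. The difference of the 2 brain-death differences was above 0 in 32 of 36 genes (46.6% of all genes) with a median of 0.77, against -0.02 over all genes. This median was 0.42 without sham replicate 2 and 1.07 without sham replicate 1. By limma 0 genes passed (0.95% of all genes did), and 15 of 36 had an unadjusted p under 0.05, against 12.5% of all genes. Eif2ak2 (1.2 ± 0.3, adjusted p = 0.099), Ifit2 (1.52 ± 0.4, adjusted p = 0.12), Dhx58 (1.77 ± 0.48, adjusted p = 0.14), Rsad2 (2.92 ± 0.89, adjusted p = 0.2) and Stat2 (0.9 ± 0.28, adjusted p = 0.2) had the smallest p. Without sham replicate 1, 5 genes passed (the share of all genes in that fit is not given here), and without any 1 of the other 11 arrays 0 passed. The 24 rises with the agonist and 0 without it are thus not shown to differ between the 2 settings.

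Of 31 genes for interferons, their receptors and the signalling between them, 25 were measured. For these, in BD/SEW against SEW, 11 rose (4.75% of all genes), 3 fell (5.04% of all genes) and 11 did not pass, with a median difference of 0.4 against -0.007 over all genes. The 2 interferon genes measured, Ifnb1 and Ifng, lay near the floor of the arrays in all groups. Ifnb1 was at 4.91 to 5.07 in BD/SEW, 4.99 to 5.16 in BD, 4.85 to 4.91 in SEW and 4.82 to 4.93 in sham. Ifng was at 3.91 to 4.15 over all 12 arrays. Both sets of values lie below the lower quartile of every array, where a change in level may not be seen.

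The 4 largest rises on this list were those of Irf1, Socs1, Tlr7 and Irf7. Irf1, which both kinds of interferon induce, was at 13.11, 13.06 and 12.82 in BD/SEW and at 10.46, 10.95 and 10.27 in SEW, and rose by 2.44 ± 0.17 (adjusted p = 1.5e-05). In BD against sham it was the 1 gene of this list that rose, by 1.37 ± 0.17 (adjusted p = 0.0041). In BD/SEW against sham it rose by 1.71 ± 0.17 (adjusted p = 0.0014), and Socs1 and Ifngr2 rose too. Socs1, an inhibitor of the receptor kinases, was at 8.68, 8.55 and 7.65 in BD/SEW and at 5.89, 5.9 and 5.99 in SEW, and rose by 2.37 ± 0.3 (adjusted p = 0.00074). Tlr7, a receptor for single-stranded RNA, rose by 2.09 ± 0.33 (adjusted p = 0.0021). Irf7, which amplifies interferon production, was at 11.63, 12.47 and 12.05 in BD/SEW and 10.23, 10.49 and 10.12 in SEW, and rose by 1.77 ± 0.34 (adjusted p = 0.0066). The genes that fell were Irf3, Mavs and Ticam1, which encode a factor and 2 adaptors upstream of interferon. In SEW against sham 4 of the 25 fell (2.43% of all genes), Irf1 by 0.73 (SE 0.17, adjusted p = 0.03), Ifnar2, a subunit of the type I receptor, by 0.7 (SE 0.18, adjusted p = 0.047), Myd88 by 0.49 and Tbk1 by 0.41. In BD/SEW against BD and in the interaction 0 of the 25 passed by limma, with 4 in BD/SEW against BD (5.44% of all genes) and 11 in the interaction (12.5% of all genes) at an unadjusted p under 0.05.

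**Figure D5:**
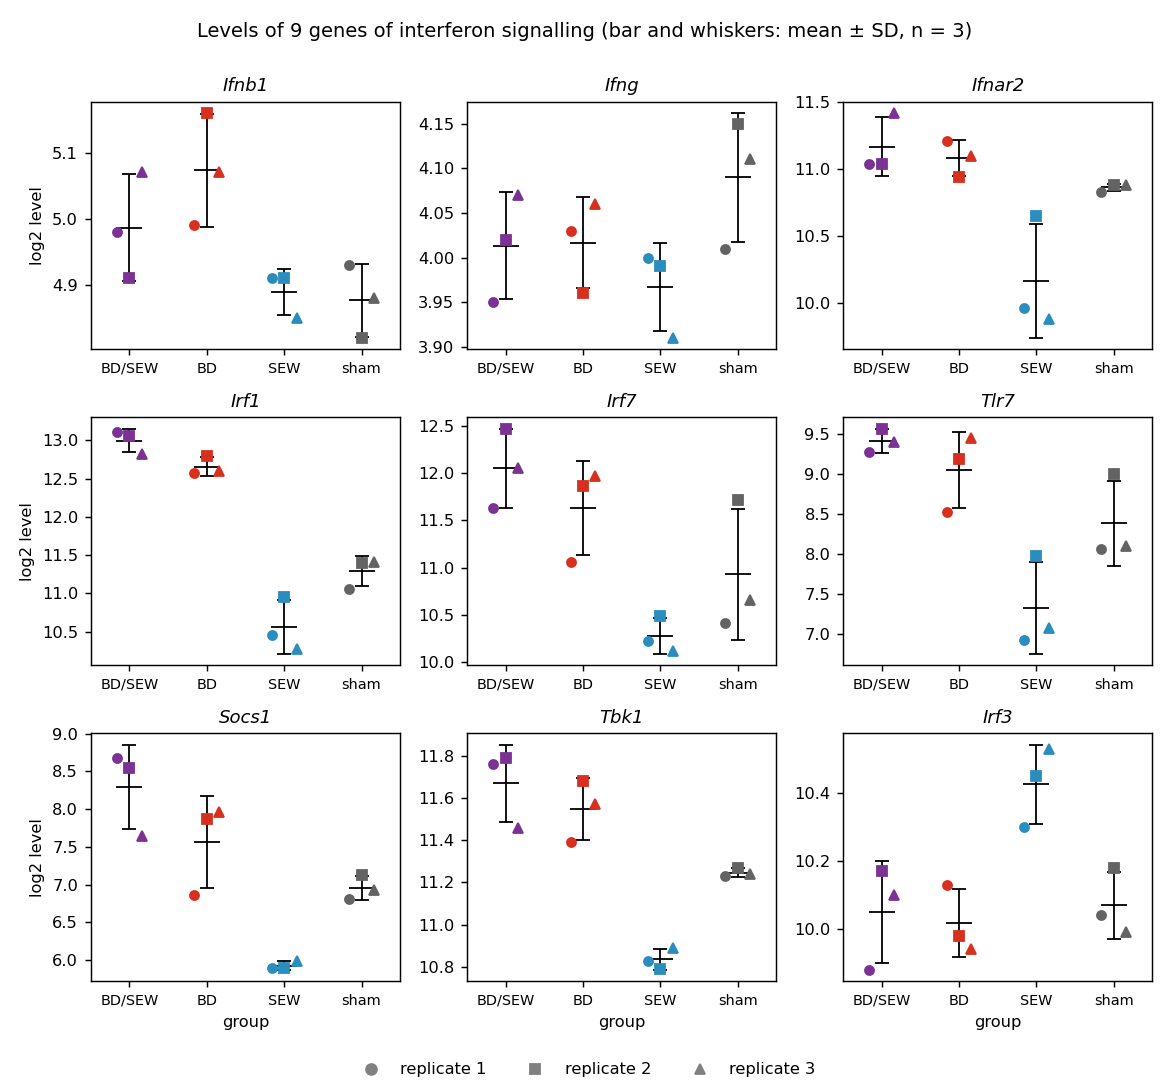
Log2 level of 9 genes of interferon signalling in each array, by group, with the mean ± SD (n = 3). Ifnb1 and Ifng stay below 5.2 in every array, Irf1, Irf7, Tlr7, Socs1 and Tbk1 are higher in BD/SEW than in SEW, and Irf3 is lower in BD/SEW than in SEW.

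Of the 36 genes, 10 had several probe sets. The second Cmpk2 probe set differed by 4.38 in BD/SEW against SEW, beside 3.93, the second Igtp probe set by 1.8 beside 2.4, and the 3 Dhx58 probe sets by 1.85 to 2.31. Besides Mx2, the sign differed between probe sets for Nmi, from -0.05 to 0.07. Adar differed in sign in SEW against sham, from -0.52 to 0.3.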

How the data were processed

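Lung RNA of 12 rats was hybridised to Affymetrix arrays, 3 per group. The deposited values are on a log2 scale, 1 per probe set. Per the submitters' processing notes, RMA, MAS5 and affy were used, with no versions or roles given. Array medians lay at 7.34 to 7.41. The array annotation gave 1 symbol to 20826 of 31042 probe sets, several to 436 and none to 9780. The probe set with the highest mean stood for each of 14217 genes. limma 3.58.1 in R 4.3.3 fitted 1 mean per group over all 12 arrays, with a mean trend and Benjamini-Hochberg adjustment over 14217 genes. All tests are two-sided, and 12 arrays limit the precision. The fit was tested on simulated data. In each comparison the called genes, up to the 20 with the largest difference, were named, or the 5 with the smallest p where fewer than 5 were called. Pathway genes were named up to 4 per comparison. Members and lists were chosen with earlier results of these data known. Alternatives changed the arrays in the fit, replicate block, weights, trend, probe set rule, scaling, filters, thresholds and a cardiac covariate.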

Additional observations from a re-analysis of the deposited data

How the results depend on the processing

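The 24 genes called in BD/SEW against SEW numbered 19 to 27 under the other settings and 20 to 23 with 1 array omitted, and BD/SEW against BD gave 0 in every setting run. The labels do not say what the replicate numbers share, and the arrays were not treated as paired: same-numbered deviations over all genes correlated at -0.19 to 0.38, with 8 of 18 pairs above 0.1. Among the 36 genes, replicate 2 was most often the highest array (30, 21, 24 and 33 genes in BD/SEW, BD, SEW and sham) and replicate 1 most often the lowest (23, 31, 16 and 23 genes). The replicate block gave 2 genes for BD against sham, 14 for SEW against sham, 14 for BD/SEW against sham and 2 for the interaction. Over all genes the block called 69 in place of 84 for BD against sham and 1018 in place of 830 for SEW against sham. It called 432 in place of 408 for BD/SEW against sham and 146 in place of 135 for the interaction. SEW against sham (5 called) had 0 genes in a fit of its own 6 arrays, 10 with weighted arrays, 0 at the stricter adjusted p of 0.01, 0 with the cardiac mean as covariate and 3 without sham replicate 3, SEW replicate 2 and BD replicate 2. BD/SEW against sham (1 called) had 0 in a fit of its own 6 arrays, 16 with weighted arrays, 2 with every probe set tested, 2 with the mean of a gene's probe sets, 2 with array medians made equal, 0 at the stricter p and 0 with the cardiac mean. With 1 array omitted the counts ran from 0 to 5 for BD against sham, 0 to 8 for SEW against sham, 0 to 15 for BD/SEW against sham and 0 to 5 for the interaction. Over all genes, weighted arrays gave 383 calls for BD against sham in place of 84, and the cardiac mean 29. SEW against sham had 1556 and 24 in place of 830, BD/SEW against sham 2685 and 12 in place of 408, and the interaction 464 and 79 in place of 135. BD/SEW against SEW had 2506 and 1281 in place of 1392, and 629 at the stricter p. Other counts over all genes at the stricter p were 22 for BD against sham, 109 for SEW against sham, 89 for BD/SEW against sham and 24 for the interaction. A fit of the compared arrays alone called 13 genes in all for BD against sham, 257 for SEW against sham, 685 for BD/SEW against sham and 8 in place of 2 for BD/SEW against BD. Without the 3 arrays named, 499 were called for BD against sham, 1160 for BD/SEW against sham and 418 for the interaction. A fold of at least 1.5 left 512 for SEW against sham and 914 for BD/SEW against SEW. With every probe set tested 51 were called for BD against sham and 82 for the interaction. The cause of these shifts was not tested. For fits with 1 array omitted, the share of all genes called is given here only for BD against sham. The second Mx2 probe set was tried after the data were seen. Levels below an array's lower quartile, as for Ifnb1 and Ifng, limit what can be seen.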
